A study of Mus musculus with 6 samples.

Results

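The keratins of the inner root sheath, the companion layer and the hair shaft were examined in sorted hair bulge (HB) keratinocytes with and without integrin α3β1. They comprise 9 of the 22295 genes of the count table, taken by symbol, with earlier results of these data known. Krt25, Krt27, Krt28, Krt71, Krt72 and Krt73 belong to the inner root sheath, Krt75 to the companion layer, and Krt31 and Krt35 to the hair shaft. Of the 9 genes, 8 had reads in at least 1 library and were tested, whereas Krt72 had none.

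RNA came from GFP-positive epidermal keratinocytes of 3 K19 Itga3 WT mice and 3 K19 Itga3 KO mice bred on FVB (FVB/N in the methods), with 1 library for each mouse. WT mice carried K19(Cre-ERT) and mTmG, and KO mice carried K19(Cre-ERT), mTmG and Itga3 fl/fl, so that the inducible Cre and the reporter were common to both groups. Both groups received tamoxifen at 10 mg/ml over 4 days from the age of 6 weeks according to the sample descriptions. The methods of the study instead give another concentration for the injections, a slightly earlier start and added topical tamoxifen at 6 weeks. Both also received 30 μg of DMBA at 7 weeks, followed by 2 weeks of applications of 12.34 μg of TPA. The Cre is driven by the K19 promoter in HB cells, so the sorted cells are these cells and their progeny.

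The hair grows inside concentric epithelial sheaths. The inner root sheath moulds and guides the growing shaft, the companion layer lies between it and the outer root sheath, and cortex and cuticle form the shaft itself. Keratins build filaments as pairs of a type I and a type II chain, and each of these layers makes its own set. In the mouse the type I genes lie together on chromosome 11 and the type II genes on chromosome 15. Because cells of these layers arise from matrix progenitors and not from resting bulge cells, their keratins are commonly used as signs of hair follicle (HF) differentiation.

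The libraries held 20578309 to 23670507 counts each. Since the columns give the genotype but no sample number, libraries are lettered by column order within each genotype (WT a to c, KO a to c), and values are listed in that order. Of the bulge and basal markers, Krt5 had 311489 to 522442 counts per library, Krt15 had 213913 to 336855, and Krt19, whose promoter drives the Cre, had 46 to 104. The bulge stem cell marker Cd34 had 19197, 17605 and 19772 counts in WT and 9380, 13317 and 10868 in KO libraries, and was called lower (−0.72 ± 0.14, log2 fold change ± standard error, edgeR adjusted p of 0.0462). Lgr5, another stem cell marker, had 15139, 10118 and 13617 counts in WT and 8512, 11306 and 7884 in KO libraries, and its groups overlapped (−0.47 ± 0.17, edgeR adjusted p of 0.283). The targeted gene Itga3 had 8091, 5512 and 6150 counts in WT and 3078, 2637 and 2767 in KO libraries, which is −1.20 ± 0.13 (log2 fold change ± standard error) with an edgeR adjusted p of 0.00283. Libraries of a genotype differed from each other as well. WT a stood at 375 CPM for the sum of 6 proliferation genes, against 578 to 926 CPM in the others, and WT b at 60.9 CPM for 5 sebaceous gland genes, against 20.2 to 46.3 CPM in the others. CPM are library-size normalised counts (as edgeR's cpm gives them) scaled by TMM factors. The floor of detection was taken as 3 counts, which correspond to 0.127 to 0.146 CPM by library size alone, without TMM factors. In RNA from sorted cells, fewer cells of a type and less RNA per cell cannot be told apart.

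Levels between genes were compared per length, as CPM per kilobase of exon. Krt75 stood far above the other genes, with a mean and SD of 31.7 ± 7.54 over the 3 WT and 32.4 ± 8.47 over the 3 KO libraries. In WT, Krt73 (1.70 ± 1.69), Krt71 (1.64 ± 0.46), Krt27 (1.39 ± 0.31) and Krt28 (1.04 ± 0.23) followed, and neighbours in this order did not differ beyond their spread. Krt25 (0.199 ± 0.12), Krt31 (0.192 ± 0.05) and Krt35 (0.132 ± 0.02) were the lowest detected in WT, and their ranges overlapped. In KO the order below Krt75 was Krt28 (3.70 ± 1.86), Krt73 (3.55 ± 2.57), Krt71 (3.42 ± 2.05), Krt25 (2.19 ± 1.42), Krt27 (1.63 ± 0.45), Krt35 (1.17 ± 0.92) and Krt31 (0.467 ± 0.56), with SDs that overlapped from each to the next. Thus Krt25 stood below Krt27 in each WT library but above it in KO a and KO c.

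**Figure D1:**
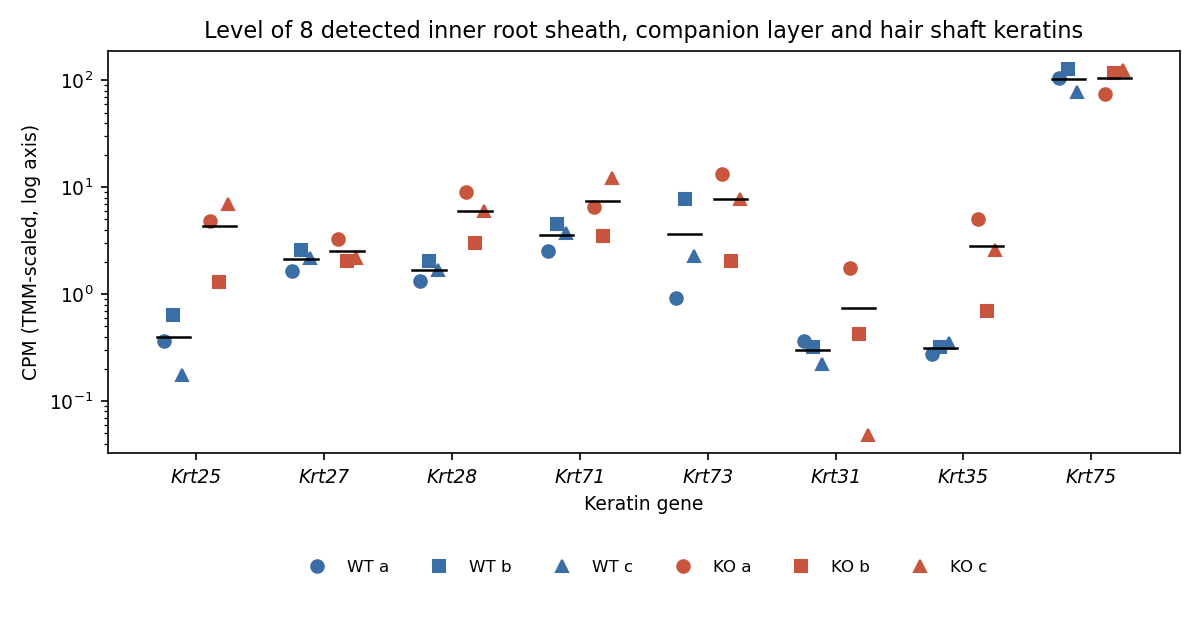
Level of the 8 detected keratins in each library, in CPM on a log axis. Points are libraries, black lines are group means. For Krt25, Krt28 and Krt35 all 3 KO libraries lie above all 3 WT libraries, and for the others the groups overlap.

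The first comparison asked whether the genotype changed these keratins. In edgeR's quasi-likelihood test with Benjamini-Hochberg adjustment over 21681 genes, 3 of the 8 tested keratins were higher in KO and none was lower, at an adjusted p below 0.05. These were Krt25 and Krt28 of the inner root sheath and Krt35 of the shaft. Over all tested genes 0.461% were called higher and 0.212% lower. The same 3 keratins were those in which each KO library lay above each WT library, which held for 8.03% of all tested genes, and none lay below in this sense, which held for 8.23%. The median log2 fold change of the 8 keratins was 1.19, against 0.00 over all tested genes, and all 8 estimates were above 0. This call count depended on single libraries, since no keratin was called without WT c, without KO a or without KO c. In edgeR, 4 of the 8 had an unadjusted p below 0.05 with all libraries, and 3, 4 and 4 in these fits. Over all tested genes this held for 2503 of 21681 with all libraries. In these fits it held for 1810 of 21301, 1539 of 21328 and 1783 of 21404. With limma-voom no keratin was called either (3 at an unadjusted p below 0.05, and 2553 of all 21681 genes), and with DESeq2 Krt25, Krt28 and Krt35 were called.

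**Figure D2:**
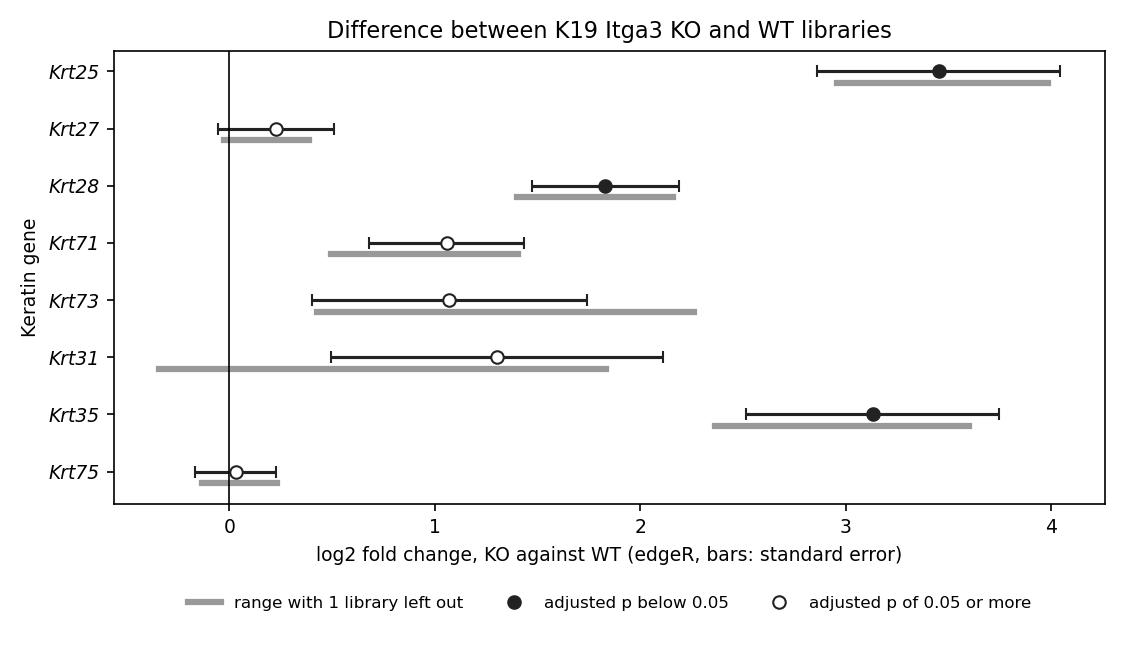
Log2 fold change of KO against WT for the 8 detected keratins (edgeR, black bars are standard errors, filled points have an adjusted p below 0.05). Gray bars give the range of the estimate when each library is left out in turn. Krt25, Krt28 and Krt35 stay above 1.4 throughout, and the bars of Krt27, Krt31 and Krt75 cross 0.

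Of the type I keratins of the inner root sheath, Krt25, Krt27 and Krt28 are neighbours within 59.4 kb of chromosome 11. Krt25 (ENSMUSG00000035831, chromosome 11, 99315516 to 99322951) encodes K25, which is made in all layers of the inner root sheath. It had 8, 14 and 4 counts in WT and 114, 28 and 143 counts in KO libraries. All KO libraries lay above all WT libraries, and KO b stood apart from KO a and KO c. The level rose from 0.395 ± 0.234 to 4.36 ± 2.83 CPM (SD, n = 3), or by 3.45 ± 0.59 (log2 fold change ± standard error) with an edgeR adjusted p of 0.0256. The exact two-sided permutation test gave p = 0.1, the smallest that 3 against 3 allows. The p-values of the fits set a group difference against the variation between libraries, estimated in part from all genes. The permutation p sets it against the other splits of the same libraries. The estimate was 3.10 without WT c (adjusted p = 0.368), 3.37 without KO a (adjusted p = 0.290) and 2.96 without KO c (adjusted p = 0.116), all from edgeR.

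Krt28 (ENSMUSG00000055937, chromosome 11, 99364872 to 99374903), another type I chain of the inner root sheath, had 29, 45 and 38 counts in WT and 213, 64 and 123 in KO libraries. The WT libraries lay close together, and KO b was again the lowest of the KO libraries. The level rose from 1.69 ± 0.365 to 6.00 ± 3.03 CPM (SD, n = 3), or by 1.83 ± 0.36 (log2 fold change ± standard error) with an edgeR adjusted p of 0.0461 and an exact permutation p of 0.1. Without WT b, WT c, KO a or KO c in turn, the adjusted p from edgeR was 0.0780, 0.382, 0.354 and 0.155, and with library size as the only scaling it was 0.0553.

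Krt27 (ENSMUSG00000017588, chromosome 11, 99345565 to 99351104) lies between Krt25 and Krt28 and is a type I chain of the same sheath. It had 36, 57 and 50 counts in WT and 78, 44 and 45 in KO libraries. KO a was the highest of all, but KO b and KO c lay within the WT range. The estimate of 0.23 ± 0.28 (log2 fold change ± standard error) did not pass (edgeR adjusted p of 0.753), and it was −0.024 without KO a.

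The promoters of 5 inner root sheath keratins are given because these genes lie close together on their chromosomes while their estimates ranged from 0.23 (Krt27) to 3.45 (Krt25). The sequences are RefSeq windows (GRCm38.p6), from 250 bases before to 50 bases after the start of the gene, and matched 8 of the 9 genes, all but Krt35. All 5 are on the minus strand and are written 5′ to 3′ along the gene. Capitals mark TATAAA, the LEF/TCF words CTTTGAA or CTTTGAT or CTTTGTA or CTTTGTT, and the GATA words TGATAA or AGATAA or TGATAG or AGATAG, searched on both strands, with no overlap between words in these windows.
Krt25, chr11:99322902-99323201: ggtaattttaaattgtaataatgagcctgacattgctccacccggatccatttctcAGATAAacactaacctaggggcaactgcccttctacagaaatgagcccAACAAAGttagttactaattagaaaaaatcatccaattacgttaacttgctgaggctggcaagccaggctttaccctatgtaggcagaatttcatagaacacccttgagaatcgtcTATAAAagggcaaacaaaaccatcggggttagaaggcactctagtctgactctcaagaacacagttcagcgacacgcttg
Krt28, chr11:99374854-99375153: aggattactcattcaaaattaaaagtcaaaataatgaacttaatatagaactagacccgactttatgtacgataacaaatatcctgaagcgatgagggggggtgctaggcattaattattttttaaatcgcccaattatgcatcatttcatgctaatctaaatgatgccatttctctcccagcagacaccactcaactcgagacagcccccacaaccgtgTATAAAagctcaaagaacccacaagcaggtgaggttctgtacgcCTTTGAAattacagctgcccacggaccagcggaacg
Krt27, chr11:99351069-99351368: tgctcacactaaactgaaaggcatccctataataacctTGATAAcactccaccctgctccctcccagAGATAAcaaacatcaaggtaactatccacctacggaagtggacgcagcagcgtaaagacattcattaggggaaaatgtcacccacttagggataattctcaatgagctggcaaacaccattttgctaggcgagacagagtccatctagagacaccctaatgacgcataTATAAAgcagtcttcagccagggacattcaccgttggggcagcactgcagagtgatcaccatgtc
Krt71, chr15:101743048-101743347: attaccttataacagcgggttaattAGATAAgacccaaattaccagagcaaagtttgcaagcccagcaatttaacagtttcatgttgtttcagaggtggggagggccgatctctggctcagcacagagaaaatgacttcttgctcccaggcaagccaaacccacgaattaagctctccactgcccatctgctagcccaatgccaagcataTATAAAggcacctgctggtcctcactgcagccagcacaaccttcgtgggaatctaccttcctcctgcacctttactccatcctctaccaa
Krt73, chr15:101802311-101802610: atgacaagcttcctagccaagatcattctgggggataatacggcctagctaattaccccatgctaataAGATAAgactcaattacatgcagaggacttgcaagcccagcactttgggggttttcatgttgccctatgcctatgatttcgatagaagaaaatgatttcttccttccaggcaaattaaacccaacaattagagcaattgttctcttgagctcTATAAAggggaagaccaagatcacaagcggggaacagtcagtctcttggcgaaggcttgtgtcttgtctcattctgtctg

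TATAAA on the strand of the gene began 30 bases before the start in Krt25, Krt28 and Krt73, 40 bases before it in Krt71 and 15 bases before it in Krt27. It also began 29 bases before the start of Krt31. Within 20 to 40 bases before the start, a range chosen after the sequences were seen, it was found in 5 of the 8 windows and in 1.99% of 32851 windows of all genes. All these distances are from the RefSeq start. For Krt27, Krt71 and Krt73 it differs from the gene boundary of the count table printed here. Their distances, and which of them fall in this range, therefore depend on the annotation. On either strand anywhere in the window, 7 of the 8 and 13.6% of all windows held TATAAA, and the Krt72 window held it on the other strand, 203 bases before the start. A GATA word was found in 4 of the 8 (Krt25, Krt27, Krt71 and Krt73) and in 29.8% of all windows. A LEF/TCF word was found in 3 of the 8 (Krt25, Krt28 and Krt31) and in 16.9%. The Krt75 window held none of these words. Of the keratins called higher in KO, Krt25 held a GATA word and a LEF/TCF word and Krt28 a LEF/TCF word without a GATA word, while Krt35 was not searched. These matches describe the letters of the windows, and binding was not measured.

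The composition of the type I set differed between the libraries of the genotypes. Of the summed counts of Krt25, Krt27 and Krt28, Krt25 made up 11% (95% Wilson interval 5.7 to 20.2), 12.1% (7.3 to 19.2) and 4.3% (1.7 to 10.7) in the WT libraries. In the KO libraries it made up 28.1% (24.0 to 32.7), 20.6% (14.6 to 28.1) and 46.0% (40.5 to 51.5). The lowest KO share of Krt25 was therefore above the highest WT share, although the interval of KO b overlaps those of WT a and WT b. The share of Krt27 was 49.3%, 49.1% and 54.3% in WT and 19.3%, 32.4% and 14.5% in KO. As the 3 shares sum to the whole, that of Krt27 falls where the other counts rise, and the estimate for Krt27 itself was 0.23. Krt28 held 38.8% to 41.3% in WT and 39.5% to 52.6% in KO. These shares do not depend on library size. Without molecular identifiers in the reads, the intervals and the floors of detection express counting error alone.

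**Figure D3:**
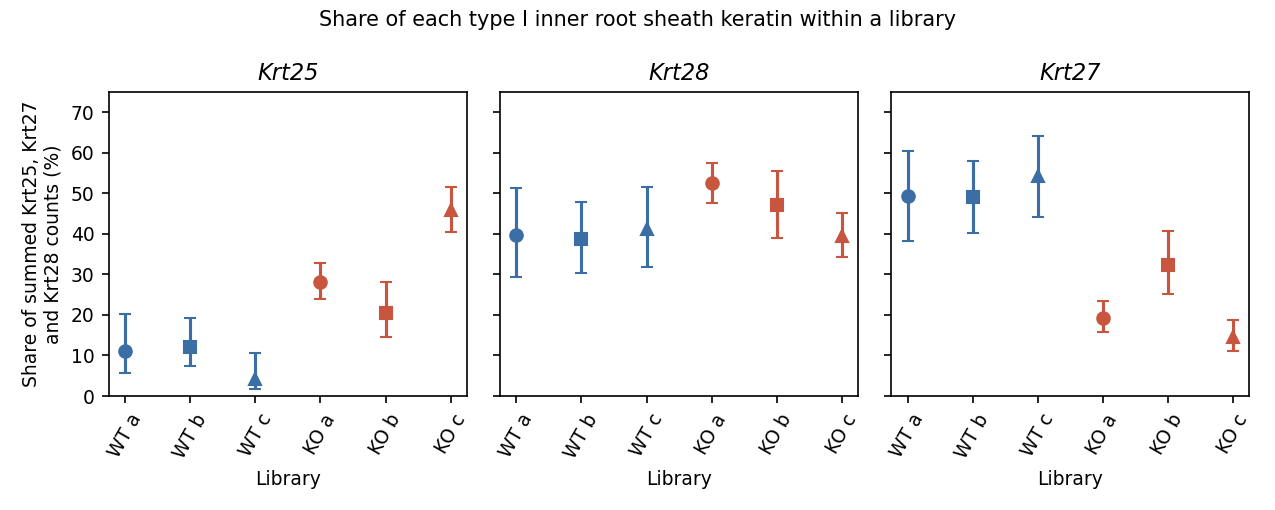
Share of Krt25, Krt28 and Krt27 in the summed counts of these 3 genes within each library, in percent, with 95% Wilson intervals. WT libraries are blue and KO libraries red. Krt25 takes 4.3% to 12.1% in WT and 20.6% to 46.0% in KO libraries, and Krt27 takes 49.1% to 54.3% and 14.5% to 32.4%.

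The type II partners among the 9 genes are Krt71, Krt72 and Krt73, within 68.4 kb of chromosome 15. Krt74, not among the 9, lies between Krt71 and Krt72 and went the other way. It had 9, 12 and 9 counts in WT and 7, 5 and 5 in KO libraries, without overlap. Its log2 fold change was −0.79 ± 0.46 (± standard error), with an edgeR adjusted p of 0.568. Krt71 (ENSMUSG00000051879, chromosome 15, 101733950 to 101743109) encodes the K71 chain, which is needed for a normal hair coat. It had 55, 99 and 84 counts in WT and 155, 75 and 255 in KO libraries. KO a and KO c exceeded all WT libraries, whereas KO b lay inside the WT range. The level was 3.59 ± 1.01 CPM in WT and 7.48 ± 4.47 CPM in KO (SD, n = 3), and the estimate of 1.06 ± 0.38 (log2 fold change ± standard error) did not pass (edgeR adjusted p of 0.283).

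Krt73 (ENSMUSG00000063661, chromosome 15, 101793308 to 101802343), a type II chain of the inner root sheath cuticle, had 20, 171 and 52 counts in WT and 311, 44 and 162 in KO libraries. The groups overlapped, with WT b at 7.83 CPM level with KO c, and KO b at 2.06 CPM inside the WT range. The estimate was 1.07 ± 0.67 (log2 fold change ± standard error) with an edgeR adjusted p of 0.605, and without WT b it was 2.26 with an edgeR adjusted p of 0.200. WT b was also the WT library with the most Krt79, a keratin of the upper follicle and sebaceous duct (19530 counts against 6267 and 8723 in WT a and c). Whether this bears on Krt73 was not tested.

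Krt72 (ENSMUSG00000056605, chromosome 15, 101776172 to 101786458), the other cuticle chain, had 0 counts in all 6 libraries. This allows up to 0.127 to 0.146 CPM per library, by library size without TMM factors. None of its 65-base words occurs in a transcript of another gene of the reference.

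In the hair shaft, Krt35 (ENSMUSG00000048013, chromosome 11, 100092193 to 100096241) encodes a type I hair keratin that appears early, in the matrix and cuticle. It had 6, 7 and 8 counts in WT and 120, 15 and 54 in KO libraries. The WT libraries were within 2 counts of each other, and the KO libraries spanned 15 to 120. The level rose from 0.316 ± 0.039 to 2.81 ± 2.21 CPM (SD, n = 3), or by 3.13 ± 0.62 (log2 fold change ± standard error) with an edgeR adjusted p of 0.0462 and an exact permutation p of 0.1. The estimate was 2.36 without KO a (adjusted p = 0.352 from edgeR), 3.22 without WT c (adjusted p = 0.386), 3.14 without WT b (adjusted p = 0.124) and 3.18 without KO c (adjusted p = 0.144), and with library size as the only scaling the adjusted p was 0.0550.

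Krt31 (ENSMUSG00000048981, chromosome 11, 100046646 to 100050551) encodes a type I keratin of the hair cortex, which is made later in the shaft than Krt35. It had 8, 7 and 5 counts in WT and 41, 9 and 1 in KO libraries. A single library, KO a, was high, and KO c lay below all others, under the floor of 3 counts. With all libraries the estimate was 1.30 ± 0.81 (log2 fold change ± standard error) with an edgeR adjusted p of 0.601, and without KO a it was −0.34. Of the 65-base words of its transcripts 22.8% also occur in Krt33a, Krt33b, Krt34 or Krt35, and reads within them do not map uniquely. For the other keratins this share was 0.00% to 7.20%.

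Krt75 (ENSMUSG00000022986, chromosome 15, 101563345 to 101573904) encodes the type II keratin of the companion layer. It had 2271, 2787 and 1779 counts in WT and 1745, 2488 and 2608 in KO libraries. The ranges nearly coincided, and the library with the most Krt28 and Krt35, KO a, had the least Krt75. The estimate was 0.03 ± 0.20 (log2 fold change ± standard error) with an edgeR adjusted p of 0.976. With single libraries left out it lay between −0.13 and 0.23.

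Per library, the 8 keratins other than Krt75 had a summed level of 7.44, 18.3 and 10.6 CPM for WT and of 43.9, 13.1 and 37.9 CPM for KO mice. KO a and KO c were above all WT libraries, and KO b lay between WT c and WT b. Means and SDs were 12.1 ± 5.60 CPM for the 3 WT and 31.6 ± 16.3 CPM for the 3 KO libraries, a ratio of 2.61. Leaving out KO a gave 2.1, leaving out KO c 2.35 and leaving out WT b 3.50. Krt25, Krt27 and Krt28 alone summed to 3.35, 5.31 and 4.06 CPM in WT and 17.2, 6.38 and 15.04 CPM in KO, without overlap. Krt71, Krt72 and Krt73 summed to 3.44, 12.4 and 6.00 CPM in WT and 19.8, 5.58 and 20.2 CPM in KO, with overlap. Krt31 and Krt35 together summed to 0.643, 0.641 and 0.573 CPM in WT and 6.84, 1.13 and 2.66 CPM in KO. With Krt75 included, the sum was 116 ± 28.7 CPM in WT and 137 ± 23.9 CPM in KO.

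**Figure D4:**
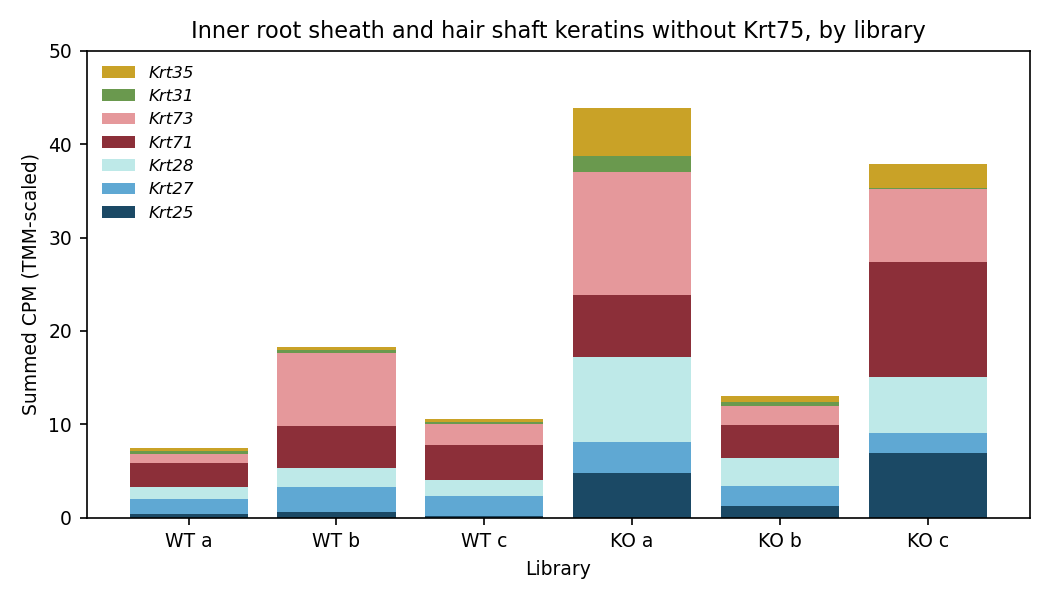
Summed CPM of the inner root sheath and hair shaft keratins other than Krt75 in each library, stacked by gene. KO a (43.9 CPM) and KO c (37.9 CPM) stand above all WT libraries, KO b (13.1 CPM) lies between WT c (10.6 CPM) and WT b (18.3 CPM).

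Over the 6 libraries, Krt28 and Krt35 followed each other most closely (Pearson r = 0.98 on log2(CPM + 0.5)), followed by Krt25 with Krt28 (r = 0.94) and Krt25 with Krt35 (r = 0.92). Krt71 was closest to Krt25 (r = 0.88) and Krt73 to Krt27 (r = 0.88), while Krt75 had coefficients between −0.63 and 0.16 with the other keratins. The coefficients are descriptions over 6 libraries that also differ by genotype.

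The position of the genes was set beside their change because the targeted gene lies on the chromosome of the type I cluster. The 5 type I genes lie between 4.24 Mb (Krt25) and 5.02 Mb (Krt35) from Itga3. All 5 of these estimates were above 0, with a median log2 fold change of 1.83, and the 3 keratins that were called are among them. The 3 tested type II genes on chromosome 15 had a median of 1.06 and none was called. Of 13 other keratins on chromosome 11 with more than 3 counts in a library of each group, 4 had estimates above and 9 below 0, with a median of −0.32, and only Krt17, a keratin of the outer root sheath and of stressed epidermis, was called (0.73 on the log2 scale, edgeR adjusted p of 0.0409). Krt26, between Krt25 and Krt27, had 0 to 3 counts per library. On chromosome 15, 16 other keratins passed the same count limit. Of these, 9 had estimates above and 7 below 0, with a median of 0.039, and none was called. Effects of the deletion of Itga3 and of sequence linked to the floxed allele cannot be told apart in this design.

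**Figure D5:**
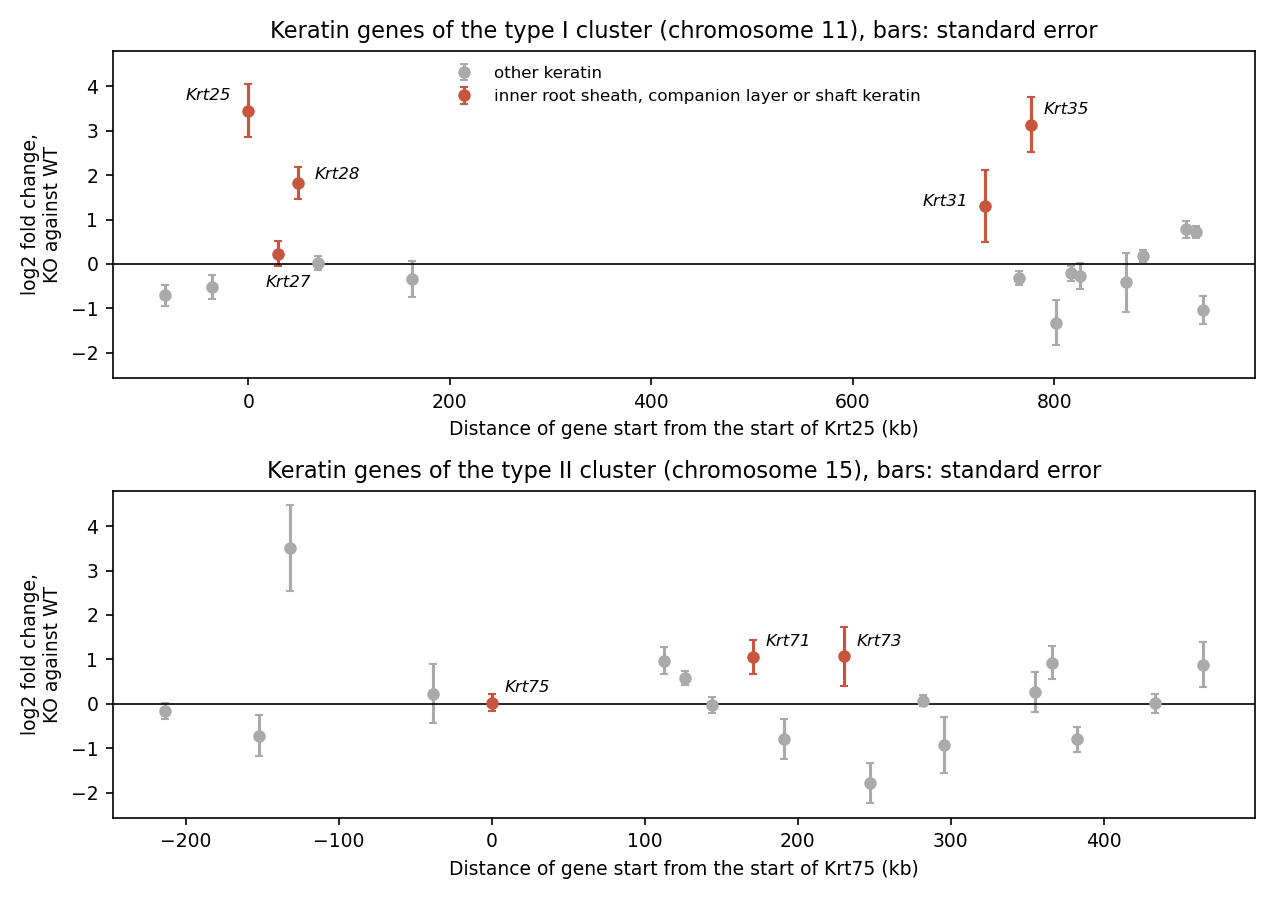
Log2 fold change of KO against WT (edgeR, bars are standard errors) for keratin genes with more than 3 counts in a library of each group, by distance of the gene start from that of Krt25 (chromosome 11) or Krt75 (chromosome 15). Krt25, Krt28 and Krt35 stand above the gray points of the other keratins on chromosome 11, whose median is −0.32.

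Other genes of the hair lineage were read from the same fit in 4 lists. None of their 42 tested genes was called by edgeR. Of the 42, 6 had an unadjusted p below 0.05, as had 2503 of all 21681 tested genes. DESeq2 called Krt83 and Cux1, and limma-voom called none. Of the other hair follicle keratins, 12 of 16 symbols were in the table and 11 were tested, with a median log2 fold change of 0.23 and 6 estimates above and 5 below 0. Krt83, a type II hair keratin of the cortex, had 1, 5 and 0 counts in WT and 53, 4 and 16 in KO libraries, with the most in KO a and KO c (log2 fold change 3.50, standard error 0.96). Krt33a, a type I hair keratin, had 2, 1 and 0 counts in WT and 19, 0 and 1 in KO libraries, nearly all in KO a. Krt32, the most abundant of this list and a keratin of the shaft cuticle, had 270, 211 and 283 counts in WT and 187, 201 and 213 in KO libraries (−0.32, standard error 0.16, adjusted p = 0.501 from edgeR).

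Of 26 keratin-associated protein genes, whose products cross-link hair keratins, 12 had any reads and 1 exceeded 3 counts in a library of each group. This was Krtap17-1, with 33, 77 and 21 counts in WT and 17, 12 and 19 in KO libraries. Krtap28-13 had 2, 2 and 0 counts in WT and none in KO libraries. Krtap11-1 had 1, 1 and 0 counts in WT and 14, 4 and 4 in KO libraries. Of 11 other genes of the inner root sheath, cuticle and cortex, 7 estimates were above and 4 below 0, with a median of 0.26. Cdsn, the most abundant, which encodes corneodesmosin, an adhesion protein of cornified cells, had 729, 1357 and 653 counts in WT and 1267, 1226 and 744 in KO libraries (0.24 ± 0.25). Tchh, which encodes trichohyalin, a matrix protein of the inner root sheath, had 106, 125 and 108 counts in WT and 150, 134 and 117 in KO libraries, with overlapping groups (0.26, standard error 0.18, adjusted p = 0.638 from edgeR). Padi3, which encodes a deiminase that modifies trichohyalin, had 2, 5 and 1 counts in WT and 24, 1 and 7 in KO libraries, and the desmosomal cadherin gene Dsg4 had 1, 9 and 1 and 22, 2 and 9. The highest library differed between genes. It was KO a in Krt83, Krt33a, Padi3, Dsg4, Tchh and Krtap11-1, as in Krt27, Krt28, Krt35, Krt31 and Krt73. It was KO c in Krt25 and Krt71, WT b in Krt75, Cdsn and Krtap17-1, and WT c in Krt32.

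Among 8 transcription factors of the hair lineage, 5 estimates were above and 3 below 0, with a median of 0.09. Cux1, a homeodomain factor of the inner root sheath lineage, had 1109, 926 and 743 counts in WT and 1992, 1211 and 1673 in KO libraries, so that the groups did not overlap, with the lowest KO value again in KO b (0.82 ± 0.17 on the log2 scale, edgeR adjusted p of 0.0623). Gata3, which is needed for the inner root sheath and was the most abundant of the list, had 1701, 1863 and 1706 counts in WT and 1880, 1565 and 1646 in KO libraries (−0.03, standard error 0.09). The estimates of Dlx3, a homeodomain factor of the hair matrix (0.46 ± 0.15), and of Foxn1, the factor mutated in nude mice (0.58 ± 0.22), did not pass.

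Marker lists of other cells moved with the genotype or with single libraries to different degrees. Of the 6 bulge and basal genes, 5 estimates were below 0 and 1 (Cd34) was called lower, with summed levels of 30490 to 47180 CPM in WT and 35700 to 41590 CPM in KO. The 5 keratins of the outer root sheath, companion layer and upper follicle summed to 4481 to 5192 CPM in WT and 6711 to 9283 CPM in KO. Of the 5, 1 (Krt17) was called. All 5 estimates were above 0, with an unadjusted edgeR p below 0.05, which held for 2503 of all 21681 tested genes. In 3 of the 5 each KO library lay above each WT library, as in 8.03% of all tested genes. The 6 fibroblast genes summed to 116 to 178 CPM in WT and 48.1 to 80.3 CPM in KO, with 3 estimates below 0 and 3 above, none called and 5 of the 6 at an unadjusted p below 0.05. Col1a1 and Col1a2 had log2 fold changes of −1.19 and −1.18. Dcn went the other way, with 18, 37 and 13 counts in WT and 128, 33 and 85 in KO libraries (1.84 ± 0.47, edgeR adjusted p of 0.113). Col3a1 had 0 counts in all WT libraries and 3, 0 and 29 in KO libraries. The 8 melanocyte genes summed to 65.5 to 82.8 CPM in WT and 42.3 to 50.3 CPM in KO, and 1 of the 8, Mitf, was called lower, from 61.2 to 32.0 CPM on average. Of the 8 estimates 6 were above 0, with a median of 0.29, so that the lower sum reflects Mitf. Mitf is not restricted to melanocytes, and Mlana and Tyr had at most 11 counts in a library. Immune genes (8.20 to 14.9 CPM in WT, 9.10 to 13.7 CPM in KO) and suprabasal epidermal genes (1153 to 1791 and 1434 to 1491 CPM) overlapped, as did proliferation genes (375 to 926 and 578 to 826 CPM), and none of these was called. Endothelial genes summed to 5.56 to 8.67 CPM in WT and 3.70 to 4.97 CPM in KO with none called, 2 estimates above and 3 below 0. Tek had the most counts and the lowest p (−1.49 ± 0.33, edgeR adjusted p of 0.0708). Pecam1 went the other way, with 21, 23 and 32 counts in WT and 44, 35 and 38 in KO libraries (0.64 ± 0.28, edgeR adjusted p of 0.411). Cdh5 and Emcn had at most 2 counts in a library. The part of these lists in the keratin differences was not tested.

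Genes outside the lists were ranked by how closely they followed the summed keratins over the 6 libraries, as Pearson's r on log2(CPM + 0.5), among the 60 genes outside the lists with a mean of at least 1 CPM and an SD of at least 1 on that scale. The 10 closest were Vcan (r = 0.89), Col14a1 (0.81), Sema3b (0.79), Slc15a2 (0.79), Ntn1 (0.78), Tbx3 (0.78), Rap1gap2 (0.74), Cpxm1 (0.73), Lce1c (0.66) and Lce1b (0.65). Krt75 made up 62.8% to 93.3% of that sum in a library. Without Krt75, a choice made after the values were seen, the closest was Foxe1, a forkhead transcription factor gene (r = 0.96), with 6, 17 and 5 counts in WT and 69, 13 and 77 in KO libraries, followed by Fndc1 (r = 0.91) and Dio2 (r = 0.89). Dio2, which encodes a deiodinase that activates thyroid hormone, had 128, 212 and 145 counts in WT and 1163, 490 and 928 in KO libraries, and in it KO b was above each WT library but the lowest of KO. These ranks are a description over 6 libraries of 2 genotypes.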

How the data were processed

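Per the labels and the methods of the study, the authors made strand-specific libraries of polyadenylated RNA, aligned single reads of 65 bases with TopHat (version 2.1.0) to mouse genome build 38, and assigned reads with a unique position to Ensembl genes. The deposited values are these counts, neither normalized nor pooled, so reads shared by near-identical keratin genes are lost. All 6 columns carry a genotype and none a sample number. Whether the mice were littermates is not given in the sources used here.

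Genes with a count in at least 1 library (21681) were tested for KO against WT with edgeR 4.0.16 in R 4.3.3 (TMM factors, glmQLFit, glmQLFTest, Benjamini-Hochberg), and a gene was called at an adjusted p below 0.05. The standard error is the log2 fold change divided by the square root of F. Alternatives were limma-voom (limma 3.58.1), DESeq2 1.42.0, library size or upper-quartile factors, filterByExpr, at least 10 counts in every library, and each library left out in turn. Only edgeR with TMM factors, limma-voom and DESeq2, each with all libraries, were tested on simulated counts. Changes were planted there only in genes above a minimum mean count. The other alternatives were not tested in this way. Exon lengths and the 65-base words shared between transcripts came from GENCODE M21, which held all 9 keratins, 6 with the coordinates of the count table. Coordinates are those of the count table (GRCm38), except the RefSeq promoters.

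The genes named were the 9 keratins, Itga3, the called, most abundant and up to 3 lowest-p genes of each list (the marker lists of other cells are given mainly by sums, and not all such genes of theirs are named), and the 10 genes whose levels followed the summed keratins most closely. Other genes were named after their values were seen. The keratins and lists were chosen with earlier results of these data known.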

Additional observations from a re-analysis of the deposited data

How the results depend on the processing

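Over all genes, 146 were called by edgeR, 24 by limma-voom, 546 by DESeq2, 15 after filterByExpr and 12 when each library had to reach 10 counts. Among the keratins, edgeR called 3 with TMM or upper-quartile factors and DESeq2 also 3, whereas 1 was called with library size only (Krt25), 0 by limma-voom, 0 after filterByExpr (7 keratins left, Krt31 removed) and 0 when each library had to reach 10 counts (5 left). With single libraries left out, the calls ranged from 5 (without WT c) to 521 (without WT a) over all genes and from 0 to 3 among the keratins. Of the 42 other hair lineage genes, edgeR called 0, DESeq2 2, and the fits without a library 0 to 2. In edgeR 6 of the 42 had an unadjusted p below 0.05, as had 2503 of all 21681 genes. The directions of Krt25, Krt28, Krt35, Krt71 and Krt73 were kept in each of these fits in which they were tested (Krt25 and Krt35 were not when each library had to reach 10 counts). Krt27 turned to −0.024 without KO a, and its estimates ranged from −0.024 to 0.39. Krt31 turned to −0.34 without KO a, within −0.34 to 1.83. Krt75 turned to −0.13, −0.04 and −0.12 without WT c, KO b and KO c, within −0.13 to 0.23. The cause of these changes was not tested. The sum of all 9 keratins was 1.19 times as high in KO as in WT with TMM factors and 1.18 times with library size only. No paired analysis was possible because the columns carry no replicate number. Counts of 1 to 20 per library limit Krt25, Krt31 and Krt35 in WT.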
